A study of Mus musculus with 10 samples.

Results

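The metallothionein and zinc response genes described here are Mt1, Mt2, Mtf1 and Slc30a1, 4 of the 52097 genes in a table of RNA levels from mouse haematopoietic stem cells. They were chosen by name, with the difference between the study's groups already known, so their own differences are given as descriptions without a test. The study compared 5 control samples (titled Dhx16_fl, genotype WT) with 5 samples of a Dhx16 knockout (titled Dhx16_CKO, genotype KO). Dhx16 encodes an RNA helicase of the spliceosome, and the titles point to a floxed allele in the controls and its conditional deletion in the knockouts. The labels name no Cre driver, age or sex, and do not tie samples to single animals, so the p-values below measure only the spread between samples. Each sample held about 5000 bone marrow cells sorted as Lin-Sca-1+c-Kit+CD48-CD150+, and its RNA was amplified with a Smart-Seq V4 kit and sequenced. Levels are in FPKM, that is fragments per transcript length and library size, and differences are knockout minus control on the log2(FPKM + 1) scale, which understates the change of low genes. Libraries go by their column names, WT2 to WT6 for control and CKO7, CKO8, CKO9, CKO12 and CKO13 for knockout.

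Metallothioneins are small, cysteine-rich proteins that bind zinc and copper in the cytosol and buffer the free metal. MTF1 is a zinc finger transcription factor that senses free zinc and, when zinc rises, binds short metal response elements in the promoters of Mt1, Mt2 and Slc30a1. Slc30a1 encodes ZnT1, the exporter of zinc at the plasma membrane. Metallothionein genes are also known to be induced by glucocorticoids, oxidants and inflammatory cytokines, and to be expressed in red cell precursors.

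Mt1 (ENSMUSG00000031765) lies on mm10 chromosome 8, 94179082 to 94180327, and Mt2 (ENSMUSG00000031762) on the same strand at 94172664 to 94173568, which leaves 5.51 kb between them. Both genes have up to 3 exons in a transcript, with 3 annotated transcripts for Mt1 and 2 for Mt2. Their coding sequences, without the stop codon, are 183 bases each and are shown because the values of such close relatives depend on reads being told apart. Capitals mark the 38 positions that differ between them.
Mt1 coding sequence: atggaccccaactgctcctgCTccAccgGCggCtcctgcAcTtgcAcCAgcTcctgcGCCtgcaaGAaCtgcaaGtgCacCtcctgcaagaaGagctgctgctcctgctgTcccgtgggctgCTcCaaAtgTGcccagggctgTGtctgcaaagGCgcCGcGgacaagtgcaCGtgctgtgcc
Mt2 coding sequence: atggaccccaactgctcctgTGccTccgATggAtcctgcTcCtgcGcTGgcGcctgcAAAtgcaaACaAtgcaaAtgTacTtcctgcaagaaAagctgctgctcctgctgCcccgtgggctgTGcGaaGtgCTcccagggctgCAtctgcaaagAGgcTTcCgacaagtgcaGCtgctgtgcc
The identity was 79.2%, and the longest run of shared bases was 20. No stretch of 25 bases in any annotated Mt1 transcript was found in an Mt2 transcript. Mt1 shared 3 such stretches with Mt3 and Mt2 shared 13 with Pip5k1a, and at 50 bases neither shared any with another gene. Read length and the handling of reads with several matches are not given in the sources used here.

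The 250 bases before the annotated start of each gene are shown because both metallothionein genes were higher in knockout libraries and both are textbook targets of MTF1. The core of the metal response element was searched as TGCACNC and TGCGCNC on both strands, and capitals mark the matches. The sequences are from RefSeq (GRCm38.p6), on the plus strand.
Mt1, chr8:94178839-94179088: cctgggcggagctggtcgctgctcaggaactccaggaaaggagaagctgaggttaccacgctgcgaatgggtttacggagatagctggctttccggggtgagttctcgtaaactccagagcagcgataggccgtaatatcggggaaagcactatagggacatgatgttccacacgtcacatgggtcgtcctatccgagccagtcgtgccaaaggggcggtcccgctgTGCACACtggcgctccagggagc
Mt2, chr8:94172368-94172617: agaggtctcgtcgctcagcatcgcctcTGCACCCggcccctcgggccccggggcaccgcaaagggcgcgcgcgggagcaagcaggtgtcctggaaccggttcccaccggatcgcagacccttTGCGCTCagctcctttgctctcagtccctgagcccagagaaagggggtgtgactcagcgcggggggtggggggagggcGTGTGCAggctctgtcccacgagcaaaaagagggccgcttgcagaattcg
Slc30a1, chr1:191906531-191906780: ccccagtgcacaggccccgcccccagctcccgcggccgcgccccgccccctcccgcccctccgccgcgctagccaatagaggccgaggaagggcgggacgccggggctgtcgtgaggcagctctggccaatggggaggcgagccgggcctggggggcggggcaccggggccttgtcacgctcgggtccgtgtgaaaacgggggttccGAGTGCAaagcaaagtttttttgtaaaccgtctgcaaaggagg
Mt2 held 3 cores, beginning 223, 128 and 50 bases before its start. Mt1 held 1, beginning 23 bases before its start, and Slc30a1 held 1, beginning 43 bases before its start. The Mtf1 window held 0 cores. Of 32851 promoter windows of the same length, 21.4% held at least 1 core and 5.17% held 2 or more. The counts depend on the window: with the 50 bases after the start included, Mt1 had 3 cores and Mt2 had 4, and 25.7% of all windows had at least 1. The RefSeq start of Mt1 lies 7 bases inside its first annotated transcript, while the other 2 transcripts of Mt1 begin 122 and 152 bases after it. The RefSeq start of Mt2 lies 46 bases before its first annotated transcript. Which start these cells use was not tested, so the windows shown may not be those before the starts in use. A match is a short run of letters and was not tested as a binding site.

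Both metallothionein genes were higher in every knockout library than in any control library, and several-fold higher on average. The level of Mt1 was 18.49, 34.8, 40.36, 25.53 and 81.38 FPKM in WT2 to WT6, and 217.33, 280.41, 178.39, 194.21 and 338.76 FPKM in CKO7, CKO8, CKO9, CKO12 and CKO13. The 2 groups did not overlap, and WT6 was the highest of the controls. The mean was 40.1 ± 24.6 FPKM in the controls and 242 ± 66.7 FPKM in the knockouts (SD, n = 5 each), a ratio of 6.03. On the log2 scale the difference was 2.70 with a standard error of 0.39, rank 15 among the rises of the 6913 genes that passed a filter of 10 FPKM in at least 5 libraries.

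Mt2 was the lower of the pair in all 10 libraries and differed more between the groups. Its level was 3.73, 8.7, 8.86, 8.5 and 32.87 FPKM in WT2 to WT6, and 110.16, 127.66, 76.81, 89.84 and 160.74 FPKM in the knockout libraries in the same order as above. Here too the groups did not overlap, and WT6 lay far above the 4 other controls, all under 10 FPKM, so that Mt2 passed the filter through its knockout libraries. The mean was 12.5 ± 11.6 FPKM in the controls and 113 ± 33.0 FPKM in the knockouts (SD, n = 5 each), a ratio of 9.02. The log2 difference of 3.36 (standard error 0.50) was rank 5 among the rises. Among all 52097 genes ranked by mean FPKM, Mt2 moved from rank 6433 in control to rank 902 in knockout libraries, and Mt1 from rank 2543 to rank 428. Of the genes tested, 12.9% had all knockout libraries above all control libraries.

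The authors' deposited table gives log2 fold changes of 2.91 (standard error 0.32) for Mt1 and 3.52 (standard error 0.54) for Mt2, from their own DESeq2 run. Under other scalings of the libraries and other pseudocounts, the difference lay between 2.56 and 3.09 for Mt1 and between 2.90 and 3.75 for Mt2. In bulk RNA a higher level can come from more cells of a type that expresses the gene or from more RNA per cell, and these cannot be told apart.

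**Figure D1:**
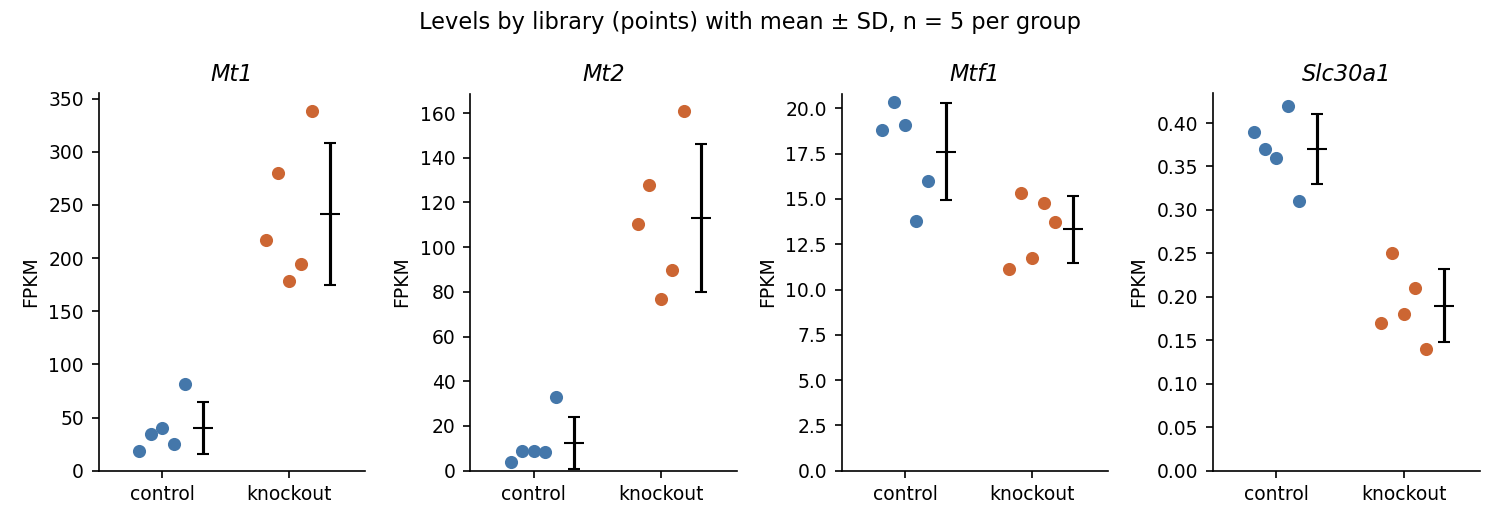
Levels of Mt1, Mt2, Mtf1 and Slc30a1 in FPKM (vertical axes from 0, each panel with its own range) for 5 control and 5 knockout libraries. Points are libraries, in column order, and the bars beside them give the mean ± SD. Mt1 and Mt2 do not overlap between the groups, with controls up to 81.38 and 32.87 FPKM, whereas Mtf1 overlaps and Slc30a1 stays at 0.42 FPKM or less in every library.

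The 2 metallothionein genes ranked the libraries in the same order within each group. From highest to lowest this was WT6, WT4, WT3, WT5 and WT2 in control, and CKO13, CKO8, CKO7, CKO12 and CKO9 in knockout libraries, for both genes. Their ratio was not constant. Mt1 over Mt2 was 4.96, 4.0, 4.56, 3.004 and 2.48 in WT2 to WT6, and 1.97, 2.20, 2.32, 2.16 and 2.11 in the knockout libraries. Every knockout ratio lay below every control ratio, and WT6, the control with the most metallothionein RNA, had the ratio nearest to the knockouts. The mean ratio was 3.80 ± 1.04 in the controls and 2.15 ± 0.13 in knockout libraries (SD, n = 5 each). With 1 FPKM added to both levels the median ratios were 3.69 in the controls and 2.15 in the knockouts. Together the pair made up 0.00288% to 0.0139% of all FPKM in a control library and 0.0291% to 0.0549% in a knockout library.

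**Figure D2:**
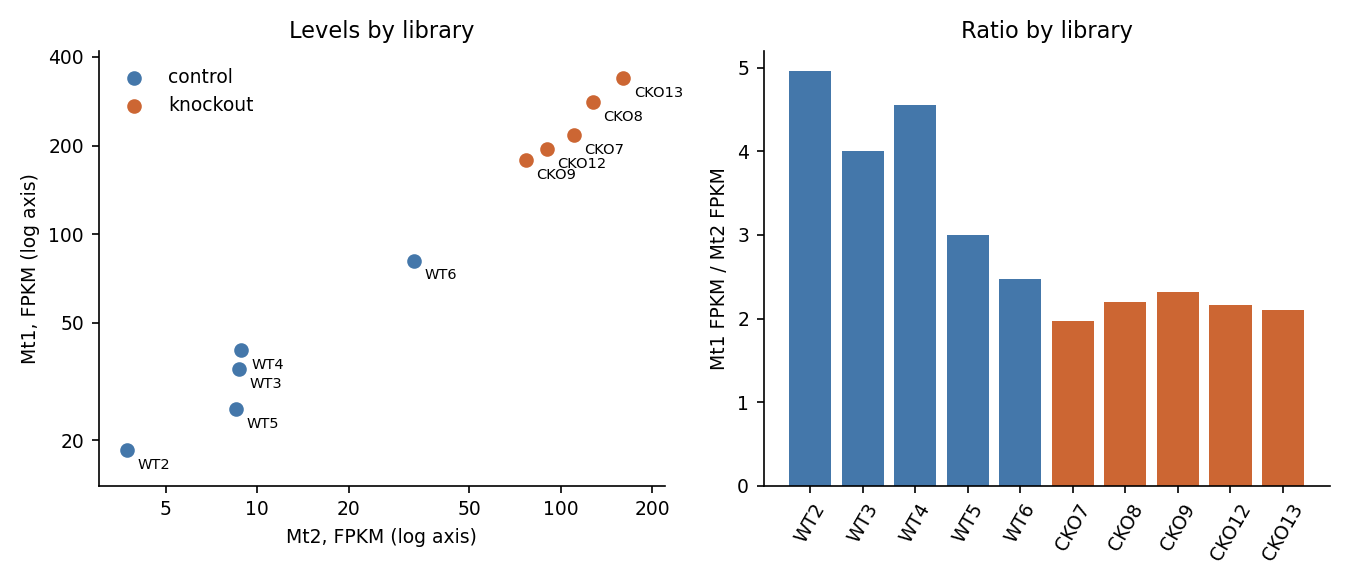
Left, Mt1 against Mt2 in FPKM on log axes, 1 point per library. Right, the ratio of Mt1 to Mt2 in each library, as bars from 0, control in blue and knockout in orange. Libraries with more Mt2 have more Mt1, and the ratio is 2.48 to 4.96 in the controls and 1.97 to 2.32 in knockout libraries.

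The other metallothionein genes of the mouse cluster gave almost no signal. Mt3, a form best known from the brain, was at 0 to 2.57 FPKM in the controls and 0 to 0.56 FPKM in the knockouts, below the filters. Mt4, known from stratified epithelium, was listed at 0 in all 10 libraries. An antisense gene that overlaps Mt2, Gm45774, was at 0 to 0.26 FPKM in the controls and 0.13 to 0.43 FPKM in the knockouts. The strand setting of the authors' counting is not stated, so reads of Mt2 and Gm45774 cannot be told apart, but the level listed for Gm45774 was a small fraction of that of Mt2.

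Mtf1 (ENSMUSG00000028890, chromosome 4, 124802104 to 124849800), which encodes the zinc sensor, was not higher where the metallothioneins were. Its level was 18.82, 20.36, 19.11, 13.8 and 15.99 FPKM in WT2 to WT6, and 11.11, 15.31, 11.73, 14.79 and 13.74 FPKM in the knockout libraries. The groups overlapped, since WT5 was below 2 knockout libraries. The mean was 17.6 ± 2.67 FPKM in the controls and 13.3 ± 1.85 FPKM in the knockouts (SD, n = 5 each), a difference of -0.37 (standard error 0.13). That difference went to -0.011 with median-of-ratios factors and to -0.003 with a centring on the authors' fold changes, and the authors' deposited table gives 0.09 (standard error 0.12). Mtf1 overlaps 1110065P20Rik on the other strand, at 4.49 to 7.27 FPKM across the 10 libraries, and their reads likewise cannot be told apart.

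Slc30a1 (ENSMUSG00000037434, chromosome 1, 191906767 to 191913247) was at 0.42 FPKM or less in every library and was not higher in knockout libraries. Its level was 0.39, 0.37, 0.36, 0.42 and 0.31 FPKM in WT2 to WT6, and 0.17, 0.25, 0.18, 0.21 and 0.14 FPKM in the knockout libraries. All 5 knockout libraries lay below all 5 controls, a pattern that 10.6% of the 42256 genes with any signal showed. The mean was 0.37 ± 0.04 FPKM in the controls and 0.19 ± 0.04 FPKM in the knockouts (SD, n = 5 each), a ratio of 0.51. The difference of -0.20 is small because the added 1 FPKM exceeds the level: it was -0.70 with a pseudocount of 0.1 and -0.05 with a pseudocount of 5. The authors' deposited table gives -0.64 (standard error 0.33), with a mean normalized count of 19.43 over all libraries. The antisense gene 1700034H15Rik overlaps Slc30a1 and was listed at a similar level, 0.04 to 0.68 FPKM in the controls and 0.01 to 0.29 FPKM in the knockouts, and their reads cannot be told apart. Slc30a1 passed neither filter used here, so 3 of the 4 genes were among the 6913. At so low a level, with an antisense gene at a similar one, no reading on MTF1 can be drawn from it. The activity of MTF1 was not tested.

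The FPKM sums of the libraries were 770789 to 957520 in the controls and 877099 to 966648 in knockout libraries, and their depth in reads is unknown. Dhx16 itself was at 14.33 to 22.63 FPKM in the controls and 7.1 to 10.88 FPKM in the knockouts (difference -0.81, limma adjusted p = 0.000638). Of the 6913 genes tested with limma, 52.7% had an adjusted p under 0.05, 21.1% higher and 31.6% lower in knockout libraries. With a filter of 1 FPKM 13448 genes were tested and 49.7% were called, 13.4% higher and 36.4% lower. The median difference of all tested genes was -0.12, or -0.26 with the filter of 1 FPKM. Scaling moved this balance: of the called genes, 40.1% were higher for the deposited values. Equal totals gave 28.3%, upper-quartile factors 39.6%, median-of-ratios factors 78.9% and a centring on the authors' fold changes 78.5%. In that order of scalings the median difference was -0.25, -0.13, 0.25 and 0.26, so differences of that size change sign with the scaling while those of Mt1 and Mt2 do not. All counts of list members below are to be read against these shares.

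Few zinc transporters were called in either direction. Exporters of the Slc30 family carry zinc out of the cytosol and importers of the Slc39 family carry it in, from outside or from organelles. Of 23 such genes, Slc30a1 left out, 10 passed the filter of 10 FPKM, 0 were called higher and 1 was called lower in knockout libraries (limma, adjusted p under 0.05). Their median difference was -0.15, beside -0.12 for all genes tested. Slc39a13, an importer that releases zinc from vesicles and the Golgi, was at 39.86, 29.34, 28.78, 30.61 and 35.22 FPKM in WT2 to WT6 and at 16.26, 14.26, 16.07, 20.33 and 20.63 FPKM in the knockout libraries. The groups did not overlap, as for 22.1% of tested genes in this direction. It fell by 0.87 on the log2 scale (standard error 0.14, limma adjusted p = 0.000106), and was called lower under each scaling tried, with differences of -1.01 to -0.49. The authors' deposited table gives it -0.34 (standard error 0.19).

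The remaining tested transporters had adjusted p-values over 0.05. Slc39a7, which releases zinc from the endoplasmic reticulum and was the most abundant of them, was at 58.6 ± 8.28 FPKM in the controls and 69.8 ± 5.55 FPKM in the knockouts (SD, n = 5 each, difference 0.25, limma adjusted p = 0.081). Slc39a11, a Golgi importer, was at 38.4 ± 4.32 and 31.6 ± 3.97 FPKM (difference -0.28, limma adjusted p = 0.0663). Slc39a1, Slc39a6 and Slc39a9 differed by -0.18, -0.19 and -0.15. Of the exporters that load zinc into the secretory pathway, Slc30a5, Slc30a6 and Slc30a7 differed by 0.10, 0.01 and -0.14. Slc30a9, another member of the Slc30 family, differed by -0.13. The calls of 4 of these remaining transporters depended on the scaling. Slc39a11 was called lower with upper-quartile factors and equal totals, at -0.29 and -0.42, and stood at 0.10 with median-of-ratios factors, where it was not called. With median-of-ratios factors or a centring on the authors' fold changes, Slc30a5, Slc30a6 and Slc39a7 were called higher, at 0.48 and 0.49, 0.37 and 0.38, and 0.64 and 0.65, scalings under which 3053 and 2991 genes in all were called higher.

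With the filter of 1 FPKM 16 transporters were tested, 1 called higher and 3 lower, Slc39a13 among them. The other 3 are named here after their values were seen. Slc39a8, an importer of zinc, manganese and iron at the plasma membrane, was at 3.03, 3.83, 2.02, 3.02 and 4.95 FPKM in WT2 to WT6 and at 6.75, 8.0, 6.57, 6.5 and 8.86 FPKM in the knockout libraries. As with Mt1 and Mt2, the groups did not overlap, and WT6 and CKO13 were the highest of their groups. The share of genes without overlap in this direction was 12.9% at the filter of 10 FPKM and was not counted at 1 FPKM. It rose by 0.96 (standard error 0.18, limma adjusted p = 0.00084) and was called higher under each scaling tried. Slc39a4, the importer of dietary zinc, fell by 0.72 (limma adjusted p = 0.0108), and the vesicular exporter Slc30a4 fell by 0.50 (limma adjusted p = 0.0219). Neither was called with median-of-ratios factors, where the differences were -0.43 and -0.32. The call of Slc30a4 was also lost without WT6, CKO8 or CKO12 (limma adjusted p = 0.0518, 0.0511 and 0.05415). Of 24 promoter windows, which cover 19 of the 23 transporters without Slc30a1, 41.7% held a metal response element core, beside 21.4% of all windows. Binding was not tested.

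**Figure D3:**
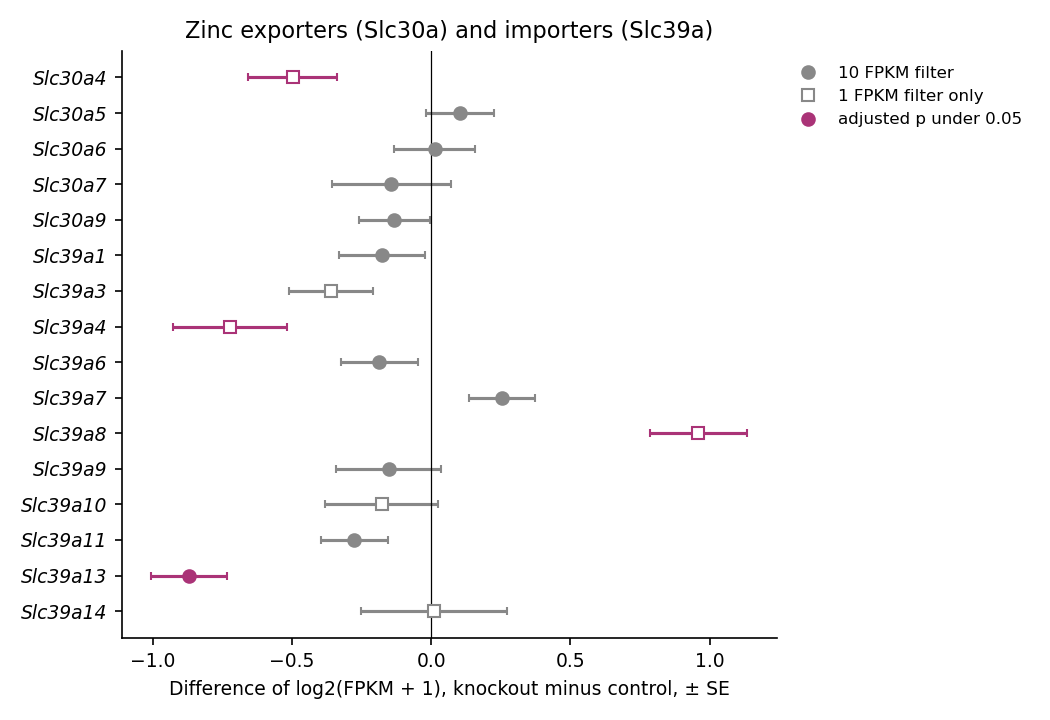
Difference of log2(FPKM + 1), knockout minus control, with its standard error for 16 zinc exporters (Slc30a) and importers (Slc39a). Filled circles passed the filter of 10 FPKM, open squares only that of 1 FPKM, and purple marks a limma adjusted p under 0.05. Slc39a8 lies at 0.96 and Slc39a13 at -0.87, and most of the others lie near 0.

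Other genes tied to MTF1 were not called higher with the values as deposited. On a list of 8 further targets and partners, 4 were tested, 0 were called higher and 2 lower, with 1 called higher under median-of-ratios factors or a centring on the authors' fold changes. Ndrg1, a stress gene reported as an MTF1-dependent target, fell from 76.5 ± 13.1 to 39.5 ± 12.8 FPKM (SD, n = 5 each, difference -0.98, limma adjusted p = 0.00111), a call not made with median-of-ratios factors, where the difference was -0.60. Slc40a1, which encodes the iron exporter ferroportin, fell from 20.4 ± 3.35 to 15.1 ± 4.27 FPKM (difference -0.45, limma adjusted p = 0.0483), and lost its call under 16 of 21 alternatives, 8 of them leaving out a single library other than WT4 or CKO8. Over all such leave-outs its difference ran from -0.57 to -0.29. Csrp1, a LIM domain protein gene, was at 56.9 ± 7.84 FPKM in the controls and 54.2 ± 8.06 FPKM in the knockouts, and the selenoprotein gene Selenow at 226 ± 61.8 and 213 ± 28.3 FPKM (SD, n = 5 each, limma adjusted p = 0.661 and 0.774).

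Copper is the other metal that metallothioneins hold. Of 12 genes of copper handling, 9 were tested, 1 was called higher and 2 lower, but 7 were called higher and 1 lower under either median-of-ratios factors or a centring on the authors' fold changes. Cox17, the chaperone that brings copper to cytochrome c oxidase, rose from 56.8 ± 16.0 to 87.4 ± 9.39 FPKM (SD, n = 5 each, difference 0.64, limma adjusted p = 0.0028), although the control WT4 at 84.47 FPKM lay above CKO8 and CKO9. Slc31a2, a copper transporter of endosomes, fell from 16.5 ± 4.92 to 6.72 ± 1.40 FPKM (difference -1.16). All its knockouts were under 10 FPKM, so it passed the filter only through the controls. No p-value is given, and its call remains in the counts. Ccs, which loads copper into superoxide dismutase, was called lower at -0.36 (limma adjusted p = 0.0308), but turned to 0.015 and 0.023 with median-of-ratios factors and a centring on the authors' fold changes. The call of Ccs was also lost without WT2, WT4, CKO8, CKO12 or CKO13, where the difference was -0.31, -0.28, -0.37, -0.34 and -0.31. With the filter of 1 FPKM Atp7b, a copper-exporting ATPase named after its values were seen, was at 0.53 ± 0.19 FPKM in the controls and 2.71 ± 0.88 FPKM in the knockouts (SD, n = 5 each, difference 1.25). All its controls were under 1 FPKM and all its knockouts above, so it passed that filter only through the group where it was high, and no test is given.

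Genes of pathways known to induce metallothioneins by routes other than zinc were mostly called lower or not called, with the values as deposited. Whether any of these routes acted on Mt1 and Mt2 was not tested. Of 9 genes that respond to glucocorticoids, 7 were tested, 0 were called higher and 5 lower, with a median difference of -0.99. Klf9 was at 15.49, 16.44, 13.05, 17.58 and 19.1 FPKM in WT2 to WT6 and at 5.79, 2.66, 2.01, 9.89 and 3.47 FPKM in the knockout libraries, without overlap. It fell by 1.74. All its knockouts were under 10 FPKM, so it passed the filter only through the controls and no p-value is given. Its call remains in the counts. Ddit4 and Nr3c1 are named here after their values were seen. Ddit4 was also called lower with all knockouts under 10 FPKM, at 5.73 to 9.1 FPKM, so it too passed only through the controls. Nr3c1, the glucocorticoid receptor gene, fell by 0.83 (limma adjusted p = 7.742e-05) and was called lower under each scaling tried. The kinase gene Sgk1 and the phosphatase gene Dusp1 fell by 0.99 and 0.92 (limma adjusted p = 0.00194 and 0.00446). With median-of-ratios factors Sgk1 and Dusp1 were not called, at -0.63 and -0.54, and 2 genes of the list were called lower rather than 5.

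Among 11 genes of the oxidant response that NRF2 drives, 7 were tested, 0 were called higher and 2 lower, with 1 and 3 called higher and 1 lower under median-of-ratios factors and the authors' centring in turn. Hmox1, heme oxygenase, was at 32.91, 22.87, 35.85, 40.92 and 38.17 FPKM in WT2 to WT6 and at 5.3, 5.93, 5.87, 6.14 and 6.91 FPKM in the knockout libraries, so the groups lay far apart. It fell by 2.30 (standard error 0.15), but passed the filter of 10 FPKM only through the controls. No p-value is given, and its call remains in the counts. Nfe2l2, which encodes NRF2, fell by 0.38 (limma adjusted p = 0.00663) as deposited, and differed by 0.005 and 0.014 under median-of-ratios factors and a centring on the authors' fold changes. The glutathione enzyme gene Gclm was at 157 ± 30.9 FPKM in the controls and 158 ± 31.5 FPKM in the knockouts (SD, n = 5 each). Hmox1 is high in macrophages, and the summed level of 6 macrophage markers was 117.3 to 271.8 FPKM in the controls and 10.57 to 27.52 FPKM in the knockouts, with all 6 called lower at the filter of 1 FPKM and none at 0. Of these, Mrc1 and Cd163 passed that filter only through the controls. The part of macrophages in the fall of Hmox1 was not tested.

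On the heat shock and STAT3 lists 1 and 0 genes were called higher, beside 21.1% of all tested genes, and both lists are too short to be set apart from that share. Of 7 heat shock genes, 3 were tested: the chaperone gene Hsph1 rose by 0.75 (limma adjusted p = 0.00252) and the cochaperone gene Dnajb1 fell by 0.98 (limma adjusted p = 3.808e-05). With median-of-ratios factors or a centring on the authors' fold changes, 2 of the 3 were called higher. Of 7 STAT3 response genes, 4 were tested, 0 were called higher and 3 lower. These were Socs3, at -1.45 (limma adjusted p = 0.0184), and Stat3 and Pim1, each at -0.69 (limma adjusted p = 0.00127 and 0.00454), and none of the 3 was called with median-of-ratios factors or a centring on the authors' fold changes. Socs3 was also not called without WT6 and CKO13, at -1.50.

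None of the tested genes on either side of Mt2 and Mt1 differed by as much as the pair. Within 500 kb lie 13 protein-coding genes, Mt3 and Mt4 left out, of which 9 were tested, 2 called higher and 2 lower, with a median difference of 0.02. Nup93, a nuclear pore gene that starts 34.2 kb beyond the pair, rose from 17.6 ± 3.60 to 34.0 ± 5.30 FPKM (SD, n = 5 each, difference 0.92, limma adjusted p = 0.000208). Nudt21, a cleavage factor gene 135.6 kb before it, rose from 42.4 ± 5.46 to 73.0 ± 3.65 FPKM (difference 0.78, limma adjusted p = 5.334e-05). Herpud1, a gene of endoplasmic reticulum protein quality control, and Cpne2, a calcium-dependent membrane-binding protein gene, fell by 0.92 and 0.95 (limma adjusted p = 2.015e-05 and 6.244e-05). All 4 kept their calls under each scaling tried. None of the 9 differed by 1 or more on the log2 scale as deposited. Among the 4 genes not tested, Gnao1, a G protein gene named after its values were seen, was at 0.85 to 3.87 FPKM in the controls and 0.05 to 0.46 FPKM in the knockouts, lower where the metallothioneins were higher.

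**Figure D4:**
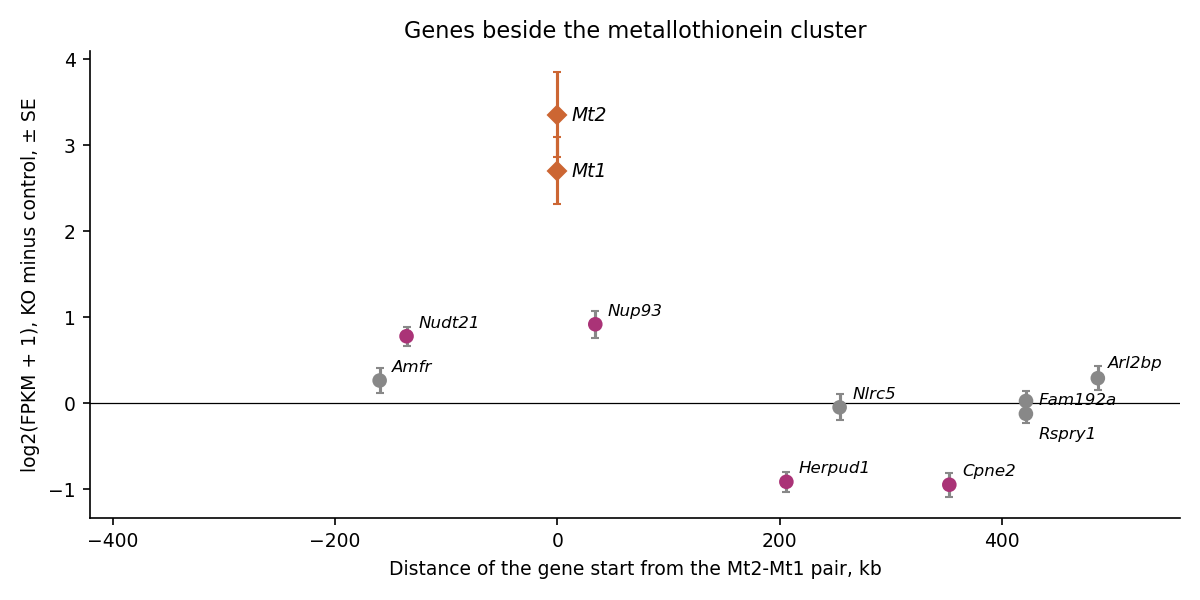
Difference of log2(FPKM + 1), knockout minus control, with its standard error, against the distance in kb of each gene's start from the Mt2 and Mt1 pair, which is drawn at 0 as orange diamonds. The 9 tested neighbours within 500 kb are circles, purple where the limma adjusted p was under 0.05. They lie between -0.95 and 0.92, whereas Mt1 and Mt2 lie at 2.70 and 3.36.

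The genes whose levels followed the metallothioneins most closely were found by the root-mean-square distance between log2(FPKM + 1) profiles over the 10 libraries, each centred on its own mean, among the 6912 other genes that passed the filter. For Mt1 the nearest were Smim1 at 0.341, Slc38a5 at 0.362, Atp1b2 at 0.39, Mt2 at 0.4 and Tspo2 at 0.455. For Mt2 they were Mt1 at 0.4, Slc38a5 at 0.422, Add2 at 0.544, Cldn13 at 0.55 and Rhd at 0.594. Each of these was several-fold higher in knockout than in control libraries, which follows from the choice by distance to Mt1 or Mt2 and is no separate result. Slc38a5, an amino acid transporter gene, went from 4.47 ± 4.24 to 34.2 ± 5.35 FPKM (SD, n = 5 each). Rhd, which encodes a blood group protein of red cells, went from 12.7 ± 11.2 to 84.8 ± 14.5 FPKM. Their control libraries lay at 1.4 to 11.45 FPKM for Slc38a5 and 3.42 to 29.59 FPKM for Rhd. The controls of Atp1b2, Tspo2 and Add2 reached at most 3.0, 9.99 and 8.68 FPKM. Like Mt2 in most controls, they were under the filter of 10 FPKM there and passed it only through the knockouts.

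Mtf1 and Slc30a1 had other companions. The profile of Mtf1 was nearest to Ddrgk1, Ydjc, Atg3, Rab9 and Smim7, at distances of 0.093 to 0.118, and Mt1 and Mt2 were at rank 6835 and 6862 of 6912 from it. Slc30a1 was nearest to Sirt2, Pde4d, Pqlc1, Mfap1b and Dnajb6, at 0.053 to 0.073, distances that are small in part because its own range on this scale is small. Such distances describe these libraries, which share preparation and processing, and every gene named as nearest to Mt1 or Mt2 was higher in all knockout than in all control libraries.

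Markers of red cell precursors moved with the metallothioneins. The summed level of 15 erythroid genes, globins and metallothioneins left out, was 1191 to 1962 FPKM in the controls and 3200 to 4673 FPKM in the knockouts, and none of the 15 was at 0 in a library. Of 14 tested, 13 were called higher (limma, adjusted p under 0.05) and 12 of these under every scaling tried. Klf1, the erythroid transcription factor gene, rose from 20.2 ± 12.1 to 111 ± 17.6 FPKM (SD, n = 5 each, difference 2.56, limma adjusted p = 0.000296), beside 2.70 for Mt1. WT6, highest of the controls in Mt1 and Mt2, was also highest of the controls in the erythroid sum, whereas CKO13, highest of the knockouts in both, was the lowest of the knockouts. The sum rests mostly on Car2, at 1001.13 to 1443.13 FPKM in the controls and 2131.78 to 3254.99 FPKM in the knockouts. The order of the knockouts differed by gene: CKO13 was lowest in Car2 and in Car1 (190.26 FPKM) but highest in Ermap (85.69 FPKM). The 4 globin genes summed to 216.2 to 2863 FPKM in the controls and 1214 to 8151 FPKM in the knockouts. The part of these cells in the levels of Mt1 and Mt2 was not tested.

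Erythroid, bone matrix, granulocyte and megakaryocyte markers each had a higher summed level in every library than a list of 8 stem cell and sort genes. The sums cover unlike sets of genes and can rest mostly on 1 gene, so they do not rank cell types. The sum of the 8 genes, among them Kit, Ly6a, Slamf1 and Procr, was 401.7 to 630.0 FPKM in the controls and 365.9 to 552.4 FPKM in the knockouts. The list includes Cd48, at 5.91 to 15.03 FPKM, although the cells were sorted as CD48-. All 8 were at 1 FPKM or more in every library. Of 6 tested, 4 were called lower: Slamf1, Procr, Mecom and Hlf. Procr and Mecom were not called with median-of-ratios factors (-0.26 and -0.33) or a centring on the authors' fold changes (-0.25 and -0.32). Bone matrix genes summed to 3180 to 65870 FPKM in the controls and 4549 to 47780 FPKM in the knockouts, without a called difference among 6 tested, and were highest in WT6 and CKO13. Granulocyte genes summed to 9623 to 74170 FPKM and 8348 to 40840 FPKM, with 0 of 6 called. Megakaryocyte genes summed to 1454 to 2163 FPKM in the controls and 711.5 to 1396 FPKM in the knockouts, with 6 of 6 called lower, 5 of them under every scaling tried, and a median difference of -1.91. Their part in the results was not tested. B cell markers summed to 18.52 to 48.47 FPKM over all libraries and T cell markers to at most 2.95 FPKM in any library. Without WT6 and CKO13 the differences were 2.86 for Mt1 and 3.63 for Mt2, larger than with them, and -0.42 for Mtf1 and -0.20 for Slc30a1.

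**Figure D5:**
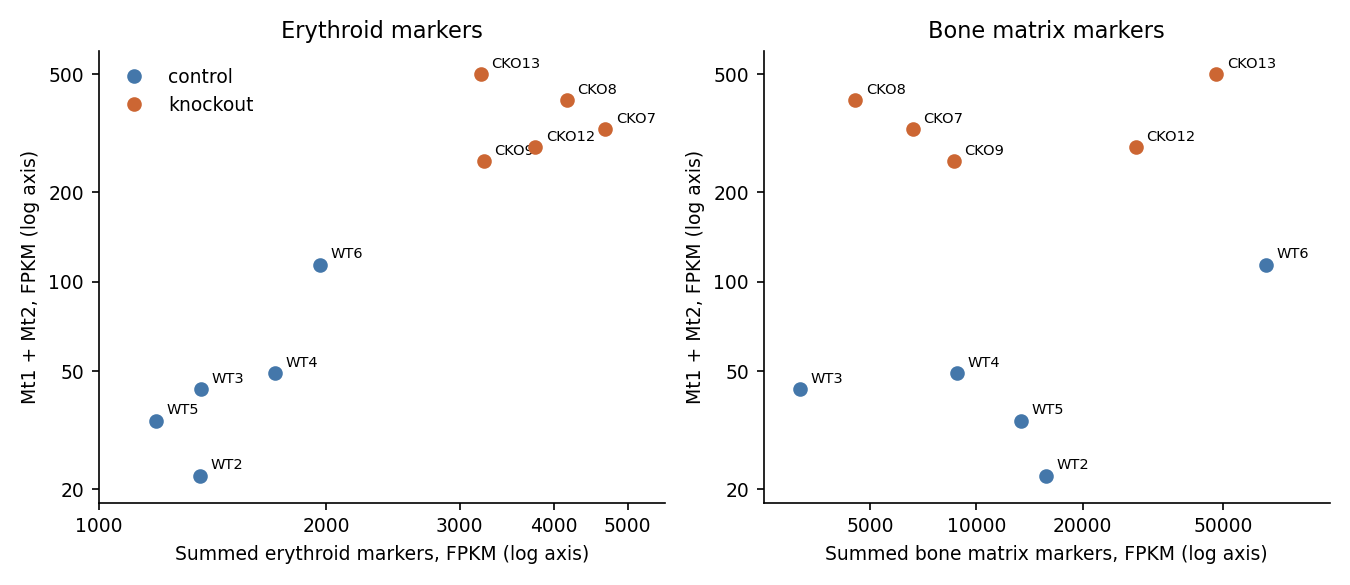
Summed Mt1 and Mt2 in FPKM against the summed level of 15 erythroid markers (left) and 6 bone matrix markers (right), all on log axes, 1 labelled point per library, control in blue and knockout in orange. The groups are apart on the erythroid axis (1191 to 1962 and 3200 to 4673 FPKM) and overlap on the bone matrix axis. The erythroid sum rests mostly on Car2. WT6 is the highest control on all axes.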

How the data were processed

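RNA levels were analysed in 5 control and 5 Dhx16 knockout samples of sorted mouse stem cells. The submitters' processing notes list the mm10 build and the tools Cufflinks 2.1.1, Bowtie 0.12.9 and HTSeq, with no roles given. The deposited library columns carry no unit name and were taken as FPKM made by the authors, because they have 2 decimals and unequal sums per library and Cufflinks is among the tools. The deposited mean normalized count is a signal, and the deposited log2 fold changes and standard errors, the score of the Wald test and the p-values come from the authors' DESeq2 run, per the file headers. Depth in reads is unknown, so no counting interval is given. Column numbers differ from title numbers, so columns were assigned to groups and not to titled samples.

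Tested were genes that reached 10 FPKM in 5 or more of the 10 libraries, which 1 group alone can provide. The fit used limma 3.58.1 in R 4.3.3 on log2(FPKM + 1) (trend and robust options, 2 genotypes, no covariate). P-values were adjusted by Benjamini and Hochberg over all tested genes, with a threshold of 0.05, and values were not rescaled between libraries. Alternatives were pseudocounts of 0.1 and 5, filters of 1 and 20 FPKM or none, 4 other scalings (upper-quartile factors, equal totals, median-of-ratios factors and a shift of 0.396 that centres differences on the authors' fold changes), limma without its options, library weights and leaving out libraries. The filter of 1 FPKM with other scalings, and leaving out WT6 and CKO13 together, were chosen after seeing the data. The test was checked on simulated data.

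All 52097 gene identifiers were found in GENCODE M21. Promoters are from RefSeq (GRCm38.p6). The members and gene lists were chosen with earlier results of these data known. Named are the 4 members, each tested zinc transporter, up to 3 called genes per direction of each other list, called neighbours, the 5 nearest profiles per member and Dhx16. Other names are said to follow from their values, or are markers.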

Additional observations from a re-analysis of the deposited data

Results flagged for a closer look

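Of 80 groups of 5 libraries looked at, 3 had a library far from the others by Dixon's criterion (gap over range above 0.71), and chance alone flags about 1 in 20 groups. Mt2 in the control WT6 was at 32.87 FPKM, and the next control was at 8.86. The share of Mt1 and Mt2 in the FPKM sum of WT6 was 0.0139%, and the next control was at 0.00554%. Cox17 in the control WT4 was at 84.47 FPKM, and the next control was at 54.03. WT6 also had the highest erythroid and bone matrix sums of the controls, and their part in its metallothionein level was not tested.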

How the results depend on the processing

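Mt1 and Mt2 stayed higher in knockout libraries under all alternatives run, with differences of 2.476 to 2.996 and 3.058 to 3.768 when 1 library was left out. Mtf1 ran from -0.45 to -0.32 and Slc30a1 from -0.22 to -0.19 when 1 library was left out. Mtf1 was at -0.011 under median-of-ratios factors and at -0.003 under a centring on the authors' fold changes, and Slc30a1 was -0.12 and -0.133 with these and -0.704 and -0.049 with pseudocounts of 0.1 and 5. The share of promoters with a core was 25.7% with a window of 300 bases.

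Called genes numbered 3642 (1460 higher, 2182 lower). They were 6687 (4890 lower) with the filter of 1 FPKM and 5910 (4523 lower) without a filter, and 1263 were lower with the filter of 20 FPKM. Median-of-ratios factors gave 3053 higher and 816 lower, and a centring on the authors' fold changes gave 2991 higher and 819 lower. The cause was not tested.

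Zinc transporters called higher were 1 with the filter of 1 FPKM or none and 3 with median-of-ratios factors or the authors' centring. Those called lower were 3 with the filter of 1 FPKM, and 2 without a filter, with upper-quartile factors, equal totals or library quality weights. Leaving out 1 library gave 0 to 1 higher (1 without WT2) and 1 to 2 lower (2 without WT4 or CKO9). Of the other MTF1 targets and partners, 1 was called higher with median-of-ratios factors or the authors' centring. Lower were 1 with the filter of 20 FPKM, no filter, upper-quartile factors, the authors' centring, limma without trend and robust, library quality weights or without WT6 and CKO13, 0 with median-of-ratios factors, and 1 to 2 with 1 library left out. Copper genes called higher were 2 with the filter of 1 FPKM, no filter or library quality weights, 7 with median-of-ratios factors or the authors' centring, and 1 to 2 with 1 library left out. Lower were 1 with the filter of 20 FPKM, median-of-ratios factors, the authors' centring, library quality weights or without WT6 and CKO13, and 1 to 2 with 1 library left out. Glucocorticoid genes called lower were 3 with the filter of 20 FPKM, 2 with median-of-ratios factors, and 5 to 7 with 1 library left out. NRF2 genes called higher were 1 with median-of-ratios factors or library quality weights, 3 with the authors' centring, and 0 to 1 with 1 library left out (1 without WT2). Lower were 4 with the filter of 1 FPKM and 1 with median-of-ratios factors or the authors' centring. Heat shock genes called higher were 2 with median-of-ratios factors or the authors' centring, and lower 3 with the filter of 1 FPKM and 4 without a filter. STAT3 genes called lower were 5 with the filter of 1 FPKM and 0 with median-of-ratios factors or the authors' centring. Genes within 500 kb called higher were 6 with median-of-ratios factors and 5 under the authors' centring, and called lower 4 with the filter of 1 FPKM. The differences of Ccs (0.015 and 0.023) and Nfe2l2 (0.005 and 0.014) reversed with median-of-ratios factors and the authors' centring.

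No paired analysis was possible because the library columns carry other numbers than the sample titles. Depth in reads is unknown, so the counting precision of single-library values under 1 FPKM, such as those of Slc30a1, cannot be given.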
